A study of Mus musculus with 12 samples.

Results

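Lipid droplet coat proteins, droplet-fusion factors and neutral lipid lipases were followed in mouse liver through 10 genes: the lipases and lipase-like genes Pnpla2, Lipe, Mgll and Pnpla3, the lipase inhibitor gene G0s2, the perilipin genes Plin2, Plin4 and Plin5, and the CIDE genes Cidec and Cideb. They were chosen by gene symbol, with earlier results of these data known. All 10 were found on the array, where they account for 16 of 45101 probe sets and 10 of 18194 genes tested. Each gene is represented below by its brightest probe set, and 6 of the 10 have no other. Levels are the authors' log2 values from RMA, which corrects background, equalises the arrays' distributions and gives 1 value for each set of probes, so a difference of 1 stands for a 2-fold change.

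The 12 arrays form 4 groups of 3: LG2KO mice after fasting and refeeding, control mice after fasting and refeeding, LG2KO mice after fasting, and control mice after fasting. All mice were of the strain SV129XC57Bl/6. LG2KO is read here as a liver knockout of the glucose transporter Glut2, encoded by Slc2a2. The LG2KO mice were treated with tamoxifen and no such treatment is labelled for the control mice, so gene loss and tamoxifen cannot be told apart in any LG2KO comparison. The sources used here do not give the promoter that drives the recombinase, the age of the mice, or the hours of fasting and refeeding. Each array held liver RNA pooled from 3 animals, and p-values reflect the spread between pools. In bulk liver, fewer cells of a type and less RNA per cell cannot be told apart.

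Hepatocytes store fatty acids as triglyceride in droplets coated by perilipins. Adipose triglyceride lipase (Pnpla2) starts their breakdown, hormone-sensitive lipase (Lipe) cleaves diglyceride and monoglyceride lipase (Mgll) cleaves the last ester bond, while the G0s2 protein binds and inhibits adipose triglyceride lipase. Fasting sends fatty acids from adipose tissue to the liver and activates the nuclear receptor PPARalpha, and feeding raises insulin and the lipogenic factors SREBP1c and ChREBP. The series asks how glucose sensing in the liver bears on the response of beta cells to glucose, and the arrays give the liver side of it.

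Slc2a2 averaged 3.74 ± 0.09 in refed LG2KO livers, against 10.96 ± 0.32 in refed controls, and 3.90 ± 0.30 in fasted LG2KO livers, against 10.64 ± 0.56 in fasted controls (SD, n = 3 each). The labels of the LG2KO fasted mice disagree on feeding, since 1 of them mentions refeeding, and the title and diet were followed here. On these arrays Fasn, the fatty acid synthase gene that rises on feeding, lay between 10.09 and 10.33, against 11.77 to 12.12 on the LG2KO refed arrays. They were also above the fasted control arrays, at 8.80 to 9.09 (difference 1.27, adjusted p = 0.00287), so Fasn does not settle the label. Pck1, a gluconeogenic gene that rises on fasting, lay between 12.86 and 13.04 on the LG2KO fasted arrays, against 12.92 to 13.14 on the fasted control arrays. Its refed levels were lower, at 12.24 to 12.56 in LG2KO livers and 11.85 to 12.64 in controls. By Pck1 the LG2KO fasted arrays thus lay with the fasted controls. By Cpt1a they did so too, at 11.60 to 11.81 against 11.71 to 11.97, with refed arrays of both genotypes at 10.38 to 10.81. By the feeding genes Pklr, Srebf1 and G6pc they did not, at 10.70 to 10.91, 11.23 to 11.28 and 12.77 to 12.92. The fasted control arrays held 8.73 to 9.02, 10.51 to 10.75 and 11.47 to 11.87. Levels of feeding genes thus do not settle the label. Arrays of 1 group correlated at 0.984 to 0.996, and at 0.994 or more once control refed replicate 1 and LG2KO fasted replicate 3 were left out. Control refed replicate 1 was the lowest array of its group for 9 of the 10 genes. Markers of exocrine pancreas averaged 7.91 on control fasted replicate 3 and 4.95 to 5.34 elsewhere (7 of 9 markers measured), and those of skeletal muscle 6.72 against 4.69 to 5.06 (5 of 5). The muscle marker Myh4 did not share this rise, at 4.02 to 4.27 over the fasted control arrays. Adipocyte markers averaged 6.77 on LG2KO refed replicate 2 and 5.73 to 6.01 elsewhere (7 of 9 measured). The defining adipocyte gene Adipoq lay at 6.81 on that array and at 3.15 to 4.61 on the others. Over the LG2KO refed arrays Cidea (3.91 to 5.42) and Fabp4 (6.94 to 8.13) also spread widely. The other measured markers of the list varied little there: Lep (3.35 to 3.50), Retn (5.74 to 5.81), Adig (4.31 to 4.55) and Car3 (13.18 to 13.24). The raised mean is thus not a rise of all adipocyte markers. Hepatocyte markers averaged 12.83 to 13.11 on all 12 arrays (7 of 8 measured).

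Refeeding lowered a set of droplet and lipase transcripts in both genotypes. In LG2KO livers 4 of the 10 genes fell (Pnpla2, Cidec, Plin4 and Plin5) and Pnpla3 rose, so that 5 of 10 passed, against 7.05% of all genes (2.40% lower, 4.66% higher). In control livers 5 of the 10 fell (the same 4 and Lipe) and 0 rose, against 6.46% of all genes (3.17% lower, 3.29% higher). Because the 10 genes were chosen with earlier results of these data known, these shares describe the set and are no independent test of it. Passing means an adjusted p below 0.05 in limma, with Benjamini-Hochberg adjustment over all 18194 genes. The median difference of the 10 genes, refed minus fasted, was -0.14 in LG2KO livers and -0.43 in control livers, beside 0.01 and -0.01 over all genes. The refed and fasted arrays did not overlap for 8 of the 10 genes in LG2KO livers, against 22.5% of all genes, and for 5 of the 10 in controls, against 20.5%.

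**Figure D1:**
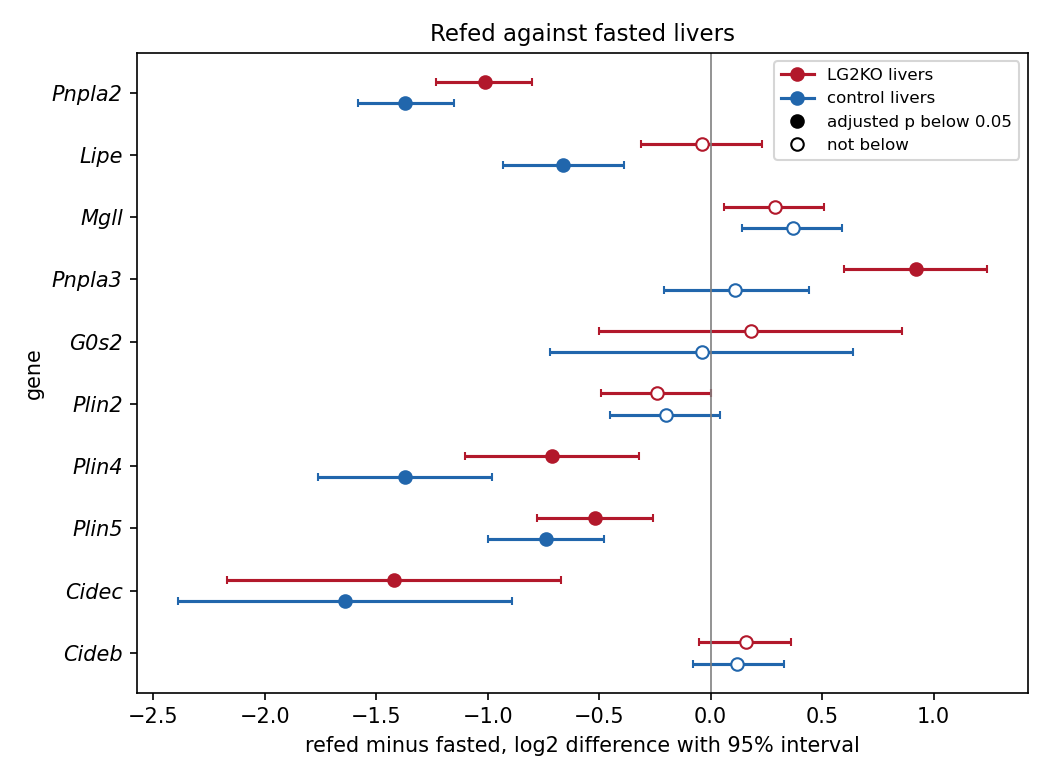
Difference between refed and fasted livers on the log2 scale (horizontal axis) for each gene (vertical axis), with its 95% interval from the limma fit, in LG2KO (red) and control (blue) livers, 3 pools a group. Filled points passed the test. Pnpla2, Plin4, Plin5 and Cidec lie left of 0 in both genotypes, Lipe does so clearly in controls, and Pnpla3 lies right of 0 in LG2KO livers at 0.92.

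Sequence upstream of the transcription start is shown for the 4 genes that fell in both genotypes, and for Pnpla3, which rose in one. The windows are the 250 bases before the most upstream start of each gene in RefSeq (GRCm38.p6), written 5′ to 3′ on the gene's strand. They are Pnpla2 (chr7:141454938-141455187, + strand), Cidec (chr6:113435761-113436010, - strand), Plin4 (chr17:56109783-56110032, - strand), Plin5 (chr17:56117549-56117798, - strand) and Pnpla3 (chr15:84167566-84167815, + strand). Plin4 and Plin5 are next to each other on chromosome 17, with 0 annotated genes between them. Capitals mark matches, on either strand, to the letters AGGTCA (the half-site of many nuclear receptors), GTAAACA (forkhead factors), CACGTG (an E-box), GGGCGG (a GC box) and CCAAT.
Pnpla2: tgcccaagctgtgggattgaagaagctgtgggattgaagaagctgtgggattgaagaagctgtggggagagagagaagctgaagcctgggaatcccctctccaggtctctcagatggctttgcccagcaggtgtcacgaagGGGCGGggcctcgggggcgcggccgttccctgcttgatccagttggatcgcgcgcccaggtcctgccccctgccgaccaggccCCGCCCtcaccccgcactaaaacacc
Cidec: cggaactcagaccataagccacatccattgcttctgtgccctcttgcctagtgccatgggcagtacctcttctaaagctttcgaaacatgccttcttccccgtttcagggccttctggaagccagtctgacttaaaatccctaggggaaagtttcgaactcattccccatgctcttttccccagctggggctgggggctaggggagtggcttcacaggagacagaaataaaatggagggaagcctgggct
Plin4: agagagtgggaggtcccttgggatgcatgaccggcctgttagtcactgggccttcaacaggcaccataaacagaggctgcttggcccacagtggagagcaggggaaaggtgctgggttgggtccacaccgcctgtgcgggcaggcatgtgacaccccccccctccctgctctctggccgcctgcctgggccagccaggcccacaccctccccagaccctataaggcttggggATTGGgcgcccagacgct
Plin5: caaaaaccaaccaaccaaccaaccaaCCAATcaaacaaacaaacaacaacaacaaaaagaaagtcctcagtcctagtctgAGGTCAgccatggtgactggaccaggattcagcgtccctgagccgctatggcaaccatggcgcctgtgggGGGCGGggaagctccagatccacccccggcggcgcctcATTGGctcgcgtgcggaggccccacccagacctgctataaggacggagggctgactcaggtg
Pnpla3: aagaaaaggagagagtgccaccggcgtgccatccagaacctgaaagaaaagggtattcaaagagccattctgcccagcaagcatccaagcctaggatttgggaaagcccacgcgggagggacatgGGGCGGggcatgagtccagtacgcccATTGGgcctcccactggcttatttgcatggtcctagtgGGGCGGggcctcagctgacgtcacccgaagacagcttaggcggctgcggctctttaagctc

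Among these 5 windows AGGTCA was found in that of Plin5, with its first base 170 bases before the start. Over all 10 genes it was in 2 of 14 windows, those of Plin2 and Plin5, and in 14% of 32851 such windows of the genome. The direct repeat bound by PPARalpha with its partner, searched on both strands as the half-site AGGNCA written in tandem with 1 free base between the copies (N is any base), was in 0 of the 14 windows and in 0.338% of all windows. GTAAACA stood in 2 of the 14 windows, before Lipe and Mgll (3.17% of all windows), and CACGTG in 2, before a start of Lipe and of Mgll (6.02%). GGGCGG was in 8 of the 14 windows (32.7% of all windows), Pnpla2, Plin5 and Pnpla3 included. CCAAT, which does not overlap any of the other letters in these windows, was in 4 of the 14 windows, before Pnpla3, Plin2, Plin4 and Plin5 (33.8%). These are matches of letters in a short window, and say nothing of binding or of sites further away.

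Pnpla2, which encodes adipose triglyceride lipase, had the smallest p of the 10 in each feeding comparison. It lay at 9.19, 9.20 and 9.19 on the LG2KO refed arrays, against 10.21, 10.12 and 10.29 on the LG2KO fasted arrays. In controls it lay at 8.80, 9.05 and 8.98 after refeeding, against 10.48, 10.28 and 10.18 after fasting. Every refed array was below every fasted array. The difference was -1.01 ± 0.10 (SE, 2.02-fold, adjusted p = 7.20e-05 in limma) in LG2KO livers and -1.37 ± 0.10 (2.58-fold, adjusted p = 7.56e-06) in controls, and both passed when any 1 array was left out. A second probe set for Pnpla2, near the low end of the array at a mean of 3.85, gave -0.08 ± 0.20 and -0.05 ± 0.20.

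Lipe, which encodes hormone-sensitive lipase, fell in controls. Its levels were 7.27, 7.19 and 7.10 in refed LG2KO livers, against 7.09, 7.29 and 7.31 in fasted LG2KO livers, with overlapping groups and a difference of -0.04 ± 0.12 (adjusted p = 0.943). In controls they were 6.82, 7.15 and 7.22 after refeeding, against 7.67, 7.78 and 7.72 after fasting, without overlap. That difference was -0.66 ± 0.12 (1.58-fold, adjusted p = 0.00629 in limma). The fasted control arrays stood above the other 9 arrays, which all lay between 6.82 and 7.31. The second Lipe probe set was dim, at a mean of 3.97, and its differences were 0.11 ± 0.12 in LG2KO livers and -0.06 ± 0.12 in controls.

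Mgll, which encodes monoglyceride lipase, had positive differences that did not pass. It lay at 11.66, 11.66 and 11.62 in refed LG2KO livers, against 11.26, 11.42 and 11.39 in fasted ones. Controls gave 11.36, 11.73 and 11.72 after refeeding, against 11.11, 11.40 and 11.20 after fasting. The differences were 0.29 ± 0.10 (adjusted p = 0.138) and 0.37 ± 0.10 (adjusted p = 0.0579 in limma). The groups overlapped in controls through control refed replicate 1. Without control refed replicate 1 and LG2KO fasted replicate 3, an alternative chosen after seeing the data, both passed, at 0.30 (adjusted p = 0.0301) and 0.49 (adjusted p = 0.00344). With the replicate number as a block, the control difference also passed (adjusted p = 0.0255). Mgll has 3 bright probe sets, whose differences lay between 0.29 and 0.33 in LG2KO livers and between 0.35 and 0.42 in controls. A dim set, at a mean of 5.14, gave 0.09 ± 0.12 in LG2KO livers and -0.12 ± 0.12 in controls, with the sign turned in controls.

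The perilipins differed in size of change. Plin4, a perilipin of adipose tissue and muscle, lay at 5.38, 5.84 and 5.79 in refed LG2KO livers, against 6.37, 6.57 and 6.19 in fasted LG2KO livers. In controls it lay at 5.65, 5.51 and 6.05 after refeeding, against 6.87, 7.21 and 7.25 after fasting. Neither pair of groups overlapped. The difference was -0.71 ± 0.18 (1.63-fold, adjusted p = 0.0332 in limma) in LG2KO livers and -1.37 ± 0.18 (2.59-fold, adjusted p = 0.000579) in controls. The LG2KO fall did not pass without LG2KO refed replicate 1, 2 or 3 or without LG2KO fasted replicate 1 or 2, where the difference lay between -0.79 and -0.56 and the adjusted p between 0.0576 and 0.137. Nor did it pass when only the LG2KO groups were fitted in limma (adjusted p = 0.0541). Replicate 2, the refed LG2KO array with raised Adipoq, held the highest refed LG2KO value, and without it the difference was -0.79. The control fall passed without any 1 array, and without control fasted replicate 3, the array with muscle and pancreas transcripts, the difference was -1.30 (adjusted p = 0.00444).

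Plin5, the perilipin of oxidative tissues that links droplets to mitochondria, lay at 10.23, 10.43 and 10.32 in refed LG2KO livers, against 10.70, 10.96 and 10.88 in fasted ones. Controls gave 10.06, 10.44 and 10.40 after refeeding, against 11.17, 11.12 and 10.83 after fasting. All refed arrays lay below all fasted arrays. The differences were -0.52 ± 0.12 (1.43-fold, adjusted p = 0.0208 in limma) and -0.74 ± 0.12 (1.67-fold, adjusted p = 0.00258). The LG2KO fall did not pass without LG2KO refed replicate 1 or 3 or LG2KO fasted replicate 2 (adjusted p between 0.0727 and 0.0934). Its second probe set gave -0.58 ± 0.16 (adjusted p = 0.0703 over all probe sets) and -0.82 ± 0.16 (adjusted p = 0.0115). Plin2, the main perilipin of liver, stayed within 12.24 to 12.36 and 12.27 to 12.62 on refed LG2KO and control arrays, against 12.42 to 12.71 and 12.49 to 12.88 on the fasted ones. Its differences of -0.24 ± 0.11 and -0.20 ± 0.11 did not pass (adjusted p = 0.275 and 0.424), and their 95% intervals ran from -0.49 to 0.00 and from -0.45 to 0.04. The LG2KO groups did not overlap, and with array weights in limma the LG2KO difference passed, at -0.33 (adjusted p = 0.0321).

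Cidec (also called Fsp27), which fuses droplets into larger ones, had the largest feeding differences of the 10 genes and also the widest spread. It lay at 5.06, 5.87 and 4.74 in refed LG2KO livers, against 6.12, 6.75 and 7.06 in fasted LG2KO livers. In controls it lay at 4.57, 5.62 and 5.76 after refeeding, against 7.18, 6.84 and 6.86 after fasting. The groups did not overlap in either genotype, although single arrays of a group differed by more than 1 log2 unit. The refed levels were dim, and those of 4.57 and 4.74 lay below the array medians of 4.78 to 4.87. The difference was -1.42 ± 0.35 (2.67-fold, adjusted p = 0.0265 in limma) in LG2KO livers and -1.64 ± 0.35 (3.12-fold, adjusted p = 0.0129) in controls. The pooled standard deviation within groups was 0.51, above that of 97.1% of genes, whose median was 0.16.

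The Cidec calls were lost without some single arrays. In LG2KO livers the fall did not pass without LG2KO refed replicate 1 or 3 or LG2KO fasted replicate 2 or 3 (differences from -1.36 to -1.18, adjusted p between 0.0694 and 0.126). In controls it did not pass without control fasted replicate 1 (-1.53, adjusted p = 0.0595). Cidec is also an adipocyte gene, and the refed LG2KO array with raised adipocyte markers, replicate 2, was its highest refed LG2KO value. Without that array the LG2KO difference was -1.74 (adjusted p = 0.0164). Its relative Cideb, which helps load lipid onto very low density lipoprotein, lay between 12.11 and 12.54 on all arrays. Its differences of 0.16 ± 0.10 and 0.12 ± 0.10 did not pass (adjusted p = 0.466 and 0.636). Without control refed replicate 1 and LG2KO fasted replicate 3, chosen after seeing the data, the control difference passed in limma, at 0.25 (adjusted p = 0.0396). With control fasted replicate 3 also left out it did not (adjusted p = 0.114).

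**Figure D2:**
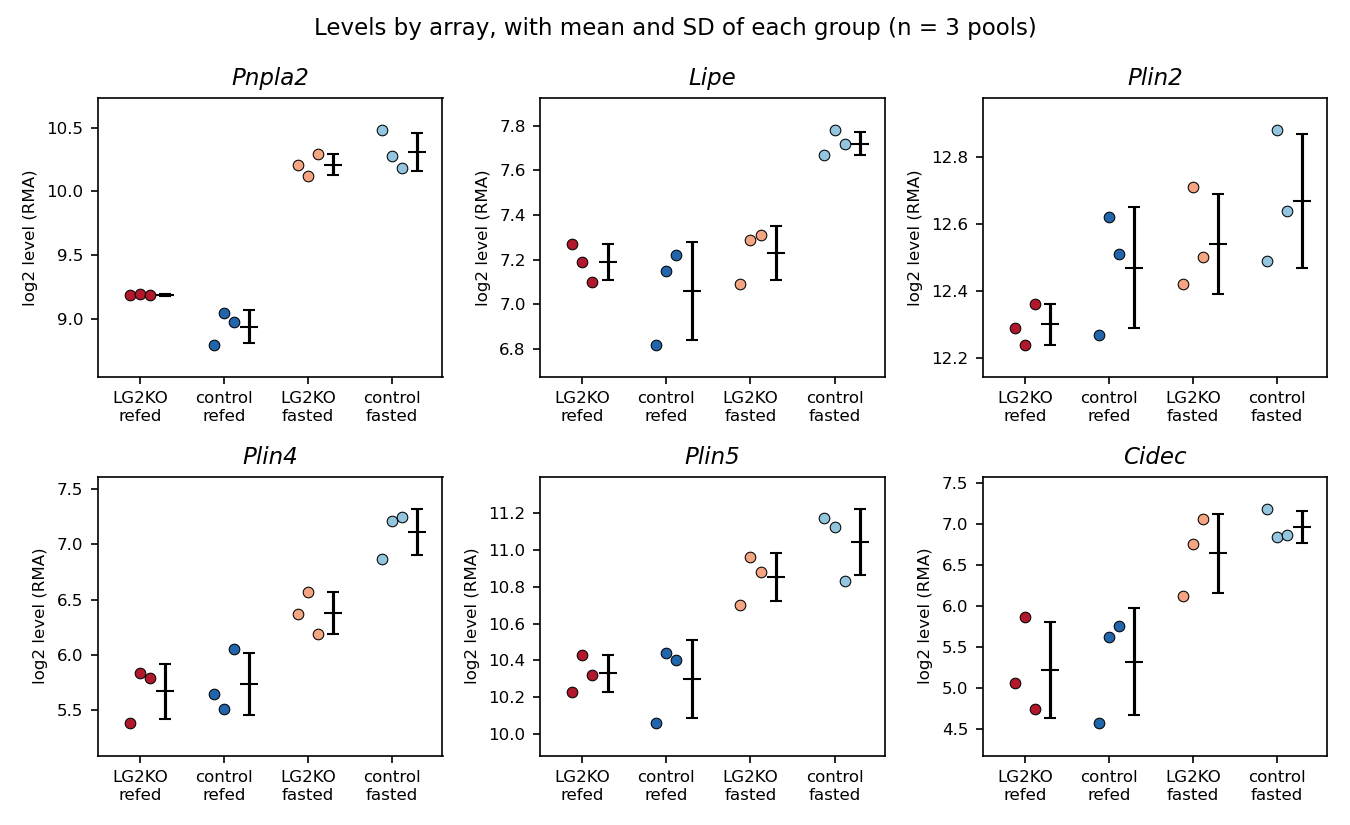
Log2 level on each array (points) with the mean and standard deviation of the group (bar to the right of the points) for 6 genes, 3 pools in each of the 4 groups. For Pnpla2, Plin4, Plin5 and Cidec the refed groups lie below the fasted groups, and for Lipe the fasted control arrays, at 7.67 to 7.78, stand above all others.

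Pnpla3 encodes a patatin-domain protein of droplets, close in sequence family to adipose triglyceride lipase and known as a target of SREBP1c and ChREBP. In refed LG2KO livers it lay at 6.49, 6.27 and 6.78, against 5.60, 5.41 and 5.77 in fasted LG2KO livers, without overlap. In controls it lay at 5.36, 5.42 and 5.67 after refeeding, against 5.39, 5.41 and 5.31 after fasting. The 3 refed LG2KO arrays thus stood above the other 9, which all lay between 5.31 and 5.77. Refeeding raised it by 0.92 ± 0.15 (1.90-fold, adjusted p = 0.00245 in limma) in LG2KO livers, and this rise passed without any 1 array. In controls the difference was 0.11 ± 0.15 (adjusted p = 0.833), with a 95% interval from -0.21 to 0.44. The Pnpla3 probe set was dim, at a mean of 5.74, where array medians lay between 4.78 and 4.87. Whether a level near background hid a response in controls was not tested.

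G0s2, the inhibitor of adipose triglyceride lipase, showed no passing change and a wide spread. It lay at 10.25, 10.92 and 10.08 in refed LG2KO livers, against 9.92, 10.12 and 10.65 in fasted ones. Controls gave 10.38, 10.90 and 10.53 after refeeding, against 10.38, 11.41 and 10.14 after fasting. All groups overlapped. The differences of 0.18 ± 0.31 (adjusted p = 0.879) and -0.04 ± 0.31 (adjusted p = 0.977) had 95% intervals from -0.50 to 0.86 and from -0.72 to 0.64. Its standard deviation within groups, 0.47, was above that of 96% of genes.

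**Figure D3:**
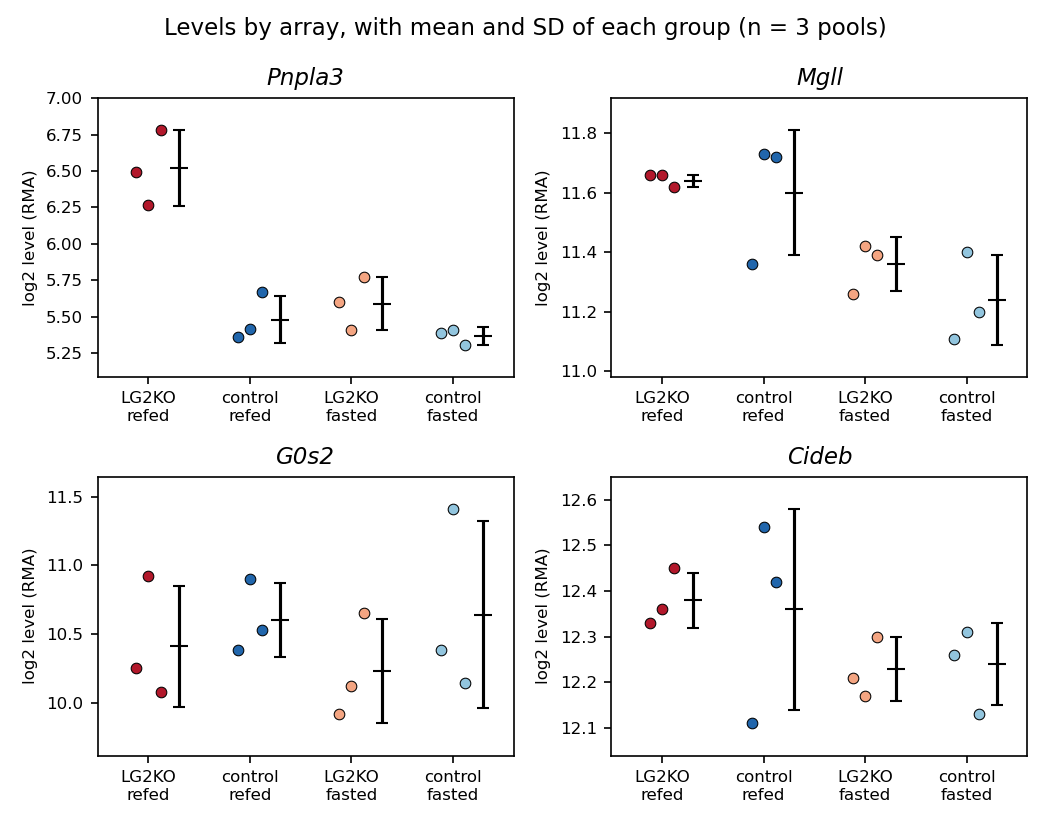
Log2 level on each array (points) with the mean and standard deviation of the group (bar to the right of the points) for the other 4 genes, 3 pools in each of the 4 groups. Pnpla3 is highest on the 3 refed LG2KO arrays, at 6.27 to 6.78, Mgll is mostly higher on refed arrays, and the groups overlap for G0s2.

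Between genotypes, Pnpla3 was the transcript of the 10 that passed, and it did so in refed livers. There 1 of the 10 genes was higher and 0 were lower, against 0.379% of all genes (0.291% higher, 0.0879% lower), and the median difference of the 10 genes, LG2KO minus control, was 0.03 beside 0.02 over all genes. Pnpla3 was higher in refed LG2KO livers by 1.03 ± 0.15 (2.05-fold, adjusted p = 0.0167 in limma), from the levels given above, whose groups did not overlap. The call was lost without LG2KO refed replicate 1 or 3 or control refed replicate 2 (differences from 0.90 to 1.05, adjusted p between 0.0613 and 0.0807) and when only these 2 groups were fitted (adjusted p = 0.122). It held without control refed replicate 1 and LG2KO fasted replicate 3 (0.97, adjusted p = 0.0212). Srebf1, which encodes SREBP1, was also higher on the refed LG2KO arrays, by 0.89 ± 0.10 (adjusted p = 0.00499), and its part in the Pnpla3 difference was not tested.

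Of the other 9 genes in refed livers, Pnpla2 alone had an unadjusted p below 0.05, as had 1661 of all 18194 genes. Its LG2KO levels of 9.19 to 9.20 stood above the control levels of 8.80 to 9.05, a difference of 0.25 ± 0.10 that did not pass (adjusted p = 0.442). The 2 genes whose groups did not overlap, Pnpla2 and Pnpla3, compare with 15.4% of all genes. The remaining 8 differences lay between -0.19 ± 0.31 (G0s2) and 0.13 ± 0.12 (Lipe). Their 95% intervals were narrow for Cideb, from -0.18 to 0.23, and wide for Cidec, from -0.84 to 0.66.

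In fasted livers 0 of the 10 genes passed in limma, against 0.396% of all genes (0.308% higher, 0.0879% lower), and 2 had an unadjusted p below 0.05, as had 946 of all 18194 genes. These were Plin4, at 6.37, 6.57 and 6.19 in LG2KO livers against 6.87, 7.21 and 7.25 in controls, and Lipe, at 7.09, 7.29 and 7.31 against 7.67, 7.78 and 7.72. Neither pair of groups overlapped, as for 10.8% of all genes. Plin4 was at -0.73 ± 0.18 (unadjusted p = 0.00149, adjusted p = 0.193) and Lipe at -0.49 ± 0.12 (unadjusted p = 0.00177, adjusted p = 0.209). With array weights Lipe passed (adjusted p = 0.0218). Without control fasted replicate 3, which carried muscle and pancreas transcripts, Plin4 was at -0.66 and Lipe at -0.49. The other 8 differences lay between -0.41 ± 0.31 (G0s2) and 0.23 ± 0.15 (Pnpla3), and 8 of the 10 were negative. The median difference of the 10 genes was -0.16, beside -0.00 over all genes. The 10 genes were measured on the same arrays, so this count is no test of the set.

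**Figure D4:**
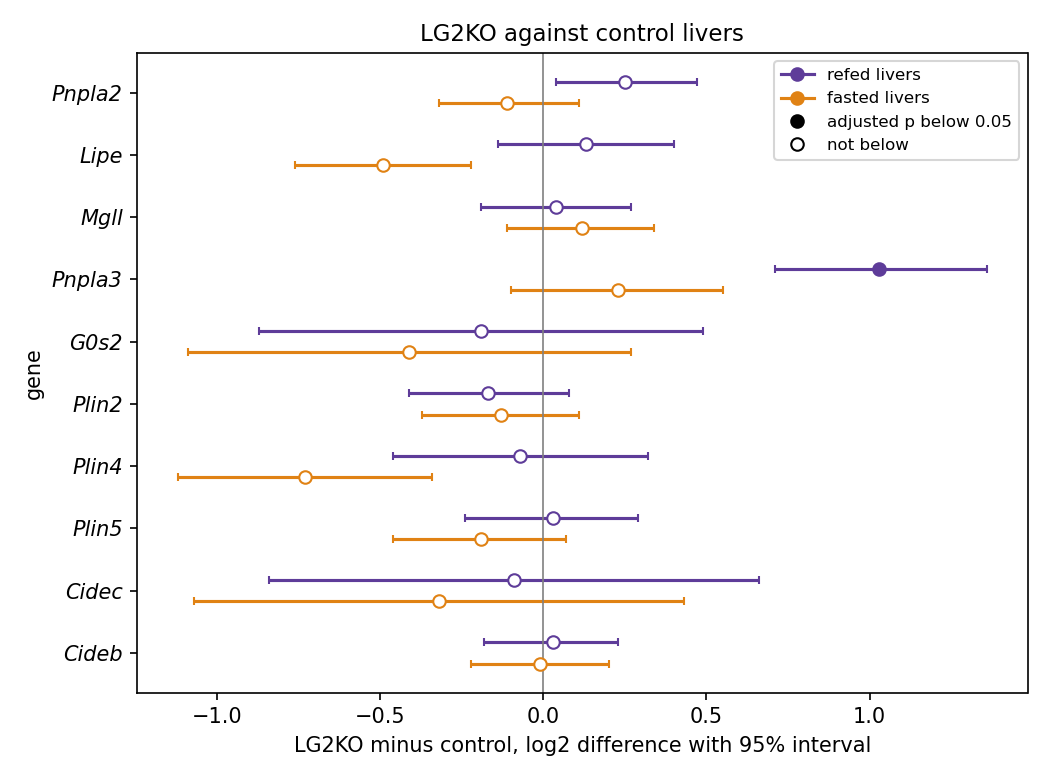
Difference between LG2KO and control livers on the log2 scale (horizontal axis) for each gene (vertical axis), with its 95% interval from the limma fit, in refed (purple) and fasted (orange) livers, 3 pools a group. Pnpla3 in refed livers, at 1.03, is the filled point that passed the test, and Plin4 and Lipe in fasted livers have intervals left of 0 without passing.

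Averaged over both feeding states, Pnpla3 again was the 1 gene of the 10 that passed, at 0.63 ± 0.10 (1.55-fold, adjusted p = 0.0144 in limma), against 1.02% of all genes (0.737% higher, 0.280% lower). This value uses the same arrays as the comparison in refed livers. Whether feeding acted differently in LG2KO and control livers was tested as an interaction, the LG2KO response minus the control response. In limma 0 of the 10 genes passed, against 0.00550% of all genes (1 gene of 18194), while 4 had an unadjusted p below 0.05, as had 861 of all genes. These were Pnpla3 at 0.81 ± 0.21 (unadjusted p = 0.00217, adjusted p = 0.574), Lipe at 0.62 ± 0.17 (unadjusted p = 0.00397, adjusted p = 0.677), Plin4 at 0.66 ± 0.26 and Pnpla2 at 0.36 ± 0.14. The rise of Pnpla3 in LG2KO livers and the fall of Lipe in controls are therefore not shown to differ from the response of the other genotype. The interval of the interaction was wide for Cidec, from -0.84 to 1.29, and narrow for Cideb, from -0.26 to 0.33.

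Further droplet genes were counted for comparison, 15 of 16 of them measured. Among them Fitm2, which helps droplets form, and Mettl7a1, a droplet-bound methyltransferase-like protein, fell in LG2KO livers on refeeding, at -0.53 ± 0.10 and -0.48 ± 0.08. Fitm2 also fell in controls, at -0.61 ± 0.10 (adjusted p = 0.00304 in limma), the 1 gene of that list to pass there. The 2 falls in LG2KO livers and 1 in controls compare with falls in 2.40% and 3.17% of all genes. The medians of the list were -0.22 in LG2KO livers and -0.03 in controls. Without LG2KO fasted replicate 3, 5 of these genes fell in LG2KO livers. Hsd17b11, a droplet-bound dehydrogenase, was lower in LG2KO livers over both feeding states, at -0.48 ± 0.09 (adjusted p = 0.0305). It was the 1 gene of the list to pass there, against 0.280% lower over all genes. That call was lost without LG2KO refed replicate 2 (the array with raised adipocyte markers) or 3, control refed replicate 2 or 3, LG2KO fasted replicate 2, or control fasted replicate 2 or 3, each of which left 0 genes of the list.

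Among 13 measured genes of 14 further lipases and cofactors, 1 rose and 1 fell in each genotype on refeeding. Over all genes 4.66% rose and 2.40% fell in LG2KO livers, and 3.29% rose and 3.17% fell in controls. Ces1d, a triglyceride hydrolase of the endoplasmic reticulum, fell in both, with differences of -0.73 ± 0.12 in LG2KO livers and -0.46 ± 0.12 in controls (adjusted p = 0.00301 and 0.0417 in limma). Pnpla7, a lysophospholipase of the patatin family, rose by 0.55 ± 0.13 and by 0.85 ± 0.13 (adjusted p = 0.0237 and 0.00167). The Ces1d call in controls was lost, leaving 0 genes, without replicate 2 or 3 of either refed group or replicate 1 or 2 of either fasted group. The Pnpla7 call in LG2KO livers was lost without any 1 LG2KO refed array or LG2KO fasted replicate 1 or 2, and without control refed replicate 1 or LG2KO fasted replicate 3 the fall in LG2KO livers covered 2 genes. Abhd5, the coactivator of adipose triglyceride lipase, was at 0.35 ± 0.13 and 0.41 ± 0.13 and did not pass (adjusted p = 0.138 and 0.0827). The medians of this list were 0.04 and 0.06, and 0 of its genes passed in any genotype comparison in limma with all arrays. Without control refed replicate 1, 1 gene was higher in fasted LG2KO livers, and without control fasted replicate 1, 1 was lower in the genotype mean.

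Of 15 known PPARalpha targets 12 were measured. On refeeding 4 fell in LG2KO livers and 5 in controls, with medians of -0.42 and -0.51, and 0 rose, against falls in 2.40% and 3.17% of all genes. Without control fasted replicate 2 the count in controls was 3, and in LG2KO livers it was 3 to 5 without any 1 array. Angptl4, an inhibitor of lipoprotein lipase, had differences of -1.37 ± 0.20 in LG2KO livers and -1.34 ± 0.20 in controls. Cpt1a, which admits fatty acids to mitochondria, had -1.18 ± 0.11 and -1.30 ± 0.11, and Slc25a20, the carnitine carrier, -0.58 ± 0.08 and -0.60 ± 0.08. Creb3l3, a transcription factor of the endoplasmic reticulum, fell in both, and Acot1 in controls, at -0.81 ± 0.21 (adjusted p = 0.0386 in limma). Between genotypes 0 passed within a feeding state in limma (1 in refed livers without LG2KO refed replicate 1), and averaged over the states Acot1, Cyp4a14 and Ehhadh were lower in LG2KO, at -0.76 ± 0.15, -0.37 ± 0.06 and -0.77 ± 0.14. These 3 of the 12 measured genes compare with 0.280% lower over all genes. That count of 3 was 0 without control fasted replicate 2 or 3, and 1 without LG2KO refed replicate 2 or 3 or LG2KO fasted replicate 2 or 3.

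**Figure D5:**
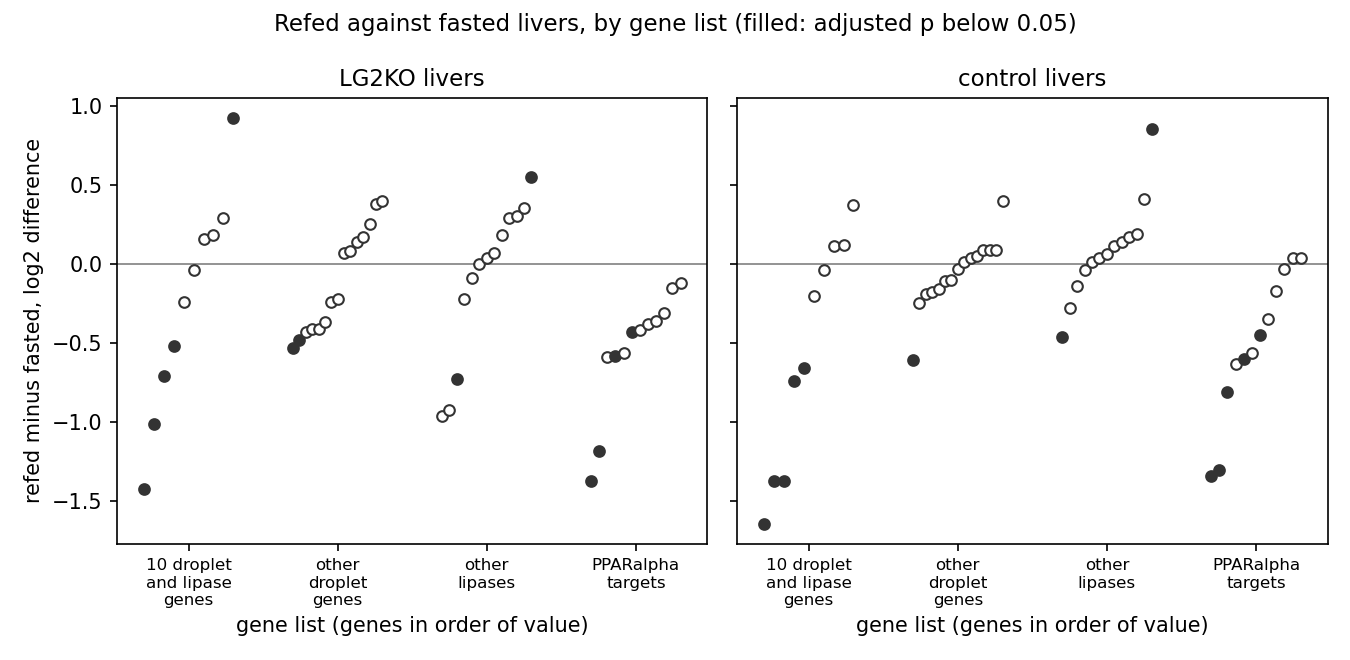
Difference between refed and fasted livers on the log2 scale (vertical axis) for every measured gene of 4 lists (horizontal axis, lowest value first within a list), in LG2KO (left) and control livers (right). Filled points passed the test. In the list of 10 droplet and lipase genes 5 points are filled in each genotype, and in the PPARalpha list 4 are filled in LG2KO livers and 5 in controls.

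Across the 12 arrays the genes whose levels ran most closely with Cidec, the gene with the largest feeding difference, were Cyp8b1 (Pearson r = 0.969), Trpt1 (0.941) and Creb3l3 (0.934). Those closest to Pnpla3, the gene with the largest genotype difference, were Pgpep1 (0.949), Pram1 (0.940) and Rsph3a (0.938). Pgpep1 averaged 10.20 in refed LG2KO livers, against 9.60 in refed controls, 9.56 in fasted LG2KO livers and 9.59 in fasted controls. These correlations are descriptions over 12 arrays that share group, feeding state and array quality. Among the 10 genes themselves, r over the 12 arrays was 0.95 for Cidec with Plin5 and 0.94 for Pnpla2 with Plin5. After the group means were taken off it was 0.75 and 0.65.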

How the data were processed

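Liver RNA of 12 pools was measured on a mouse Affymetrix array. The deposited values are log2 expression levels, 1 per probe set and array, which the authors made with RMA, per the submitters' processing notes. The sources used here name no program version and no genome build. No detection calls came with the values, so the background level is unknown. Precision is limited by having 3 arrays a group.

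Of 45101 probe sets, 34958 had 1 gene symbol in the platform's annotation, 932 had several and were left out, and 9211 were not listed there. The symbols of all 10 genes matched RefSeq (GRCm38.p6) by Entrez number. For each of 18194 symbols the brightest probe set over all arrays was used, without a filter on dim genes. Probe sets marked _s_at (for Plin5, Cideb and Mgll) can match several transcripts.

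The tests used limma 3.58.1 under R 4.3.3, with lmFit followed by eBayes and its prior following the mean level, 1 mean per group, all 12 arrays and 8 residual degrees of freedom, two-sided, with Benjamini-Hochberg adjustment over all genes in each of 6 comparisons. Passing means an adjusted p below 0.05. Errors of differences are standard errors from this fit. The fit was tested on simulated data. Of 2-fold changes it found 71.7% for refed genotype, 89.8% for fasted genotype and 44.8% for the interaction. Of 1.5-fold changes it found 34.8%, 54.8% and 10.4%. Not passing therefore does not exclude changes of these sizes. Changed genes and noise were drawn anew for each comparison with the same spread per gene. The refed and fasted genotype figures thus differ by the draw and not by feeding state. The simulated noise was independent between genes, which that of the real arrays need not be. Motif windows and promoter sequences are from RefSeq. Plots came from matplotlib 3.10.9 under Python 3.11.15.

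The 10 genes, the lists and the naming rule (all 10 genes, up to 4 passing members of each list and the 3 closest correlations) were chosen with earlier results of these data known. Same-numbered arrays of different groups were checked for pairing: their deviations from group means correlated at -0.46 to 0.77, above 0.1 in 6 of 18 pairs, so the fit has no replicate block. Alternatives were the block, other priors, array weights, filters, scalings, probe set rules and leaving out arrays.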

Additional observations from a re-analysis of the deposited data

How the results depend on the processing

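In 25 alternative settings 1363 of 1450 recomputed differences of the 10 genes kept their direction and their side of the threshold, 19 lost a call and 16 gained one. The 52 that changed sign had not passed, and their main values were at most 0.23 in size. With array weights these were Plin5, Cideb and Mgll in refed LG2KO against control (-0.07, -0.09 and -0.05), Cidec and Cideb in the interaction (-0.02 and -0.03) and Cideb in the genotype mean (-0.07). Without control refed replicate 1 and LG2KO fasted replicate 3, chosen after seeing the data, they were Plin5, Cideb and Mgll in refed livers (-0.09, -0.10 and -0.08), G0s2 in control refeeding (0.07), and Cideb in the interaction (-0.05) and the genotype mean (-0.07). With control fasted replicate 3 also left out they were Plin5, Cideb and Mgll in refed livers (-0.09, -0.10 and -0.08), and Pnpla2 and Cideb in the genotype mean (-0.02 and -0.10). With the mean of all probe sets they were Pnpla2 in fasted livers (0.01) and Lipe in LG2KO refeeding (0.03).

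Leaving out 1 array moved values across 0 for LG2KO against control in refed livers in Plin4 (-0.18 to 0.09), Plin5 (-0.09 to 0.10), Cidec (-0.47 to 0.15), Cideb (-0.10 to 0.12) and Mgll (-0.08 to 0.10), and in fasted livers in Cideb (-0.06 to 0.03). For refeeding it did so in G0s2 (-0.07 to 0.39 in LG2KO, -0.29 to 0.34 in controls) and Lipe in LG2KO (-0.11 to 0.00). In the interaction it did so in Plin2 (-0.15 to 0.05), Cidec (-0.15 to 0.47), Cideb (-0.09 to 0.12) and G0s2 (-0.16 to 0.48), and in the genotype mean in Cideb (-0.05 to 0.05).

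The number of the 10 genes that passed, without any 1 array, ranged from 0 to 1 in refed LG2KO against control, 2 to 6 in LG2KO refeeding and 4 to 6 in control refeeding. For LG2KO against control it was 0 in refed livers among the brightest 9097 and the brightest 25% of genes, which leave Pnpla3 out, and 0 when only these groups were fitted. In fasted livers it was 1 with array weights. Among the brightest 25% of genes, which hold 6 of the 10, it was 2 in LG2KO refeeding and 3 in control refeeding. In the genotype mean it was 0 with both brightness filters, and 0 without the 3 arrays, where Pnpla3 was at 0.54 (adjusted p = 0.0574). For the counts not explained by a filter the cause was not tested. With the replicate block the numbers were 1, 0, 5, 6, 0 and 1 in the order refed genotype, fasted genotype, LG2KO refeeding, control refeeding, interaction and genotype mean, and the block changed no call but that of Mgll in control refeeding.

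Over all genes the count for refed genotype was 69. It was 8 to 47 without 1 array, 41 without the intensity trend, 43 with a robust prior, 180 with array weights, 121 among the brightest 25% of genes, 15 with only these groups, 34 over single probe sets and 44 without the 3 arrays. For fasted genotype it was 72, and 30 to 97 without 1 array, 203 with array weights and 44 with only these groups. For LG2KO refeeding it was 1283, and 697 to 1803 without 1 array, 3578 with array weights, 3187 without the pair of arrays and 3199 without the 3 arrays. For control refeeding it was 1176, and 706 to 1467, 2454 with array weights, 2202 without the pair and 695 with only these groups. For the interaction it was 1, and 1 to 2 without 1 array, 20 with array weights, 6 with the replicate block or among the brightest 25%, and 2 with a robust prior or over single probe sets. For the genotype mean it was 185, and 88 to 207, 122 without the intensity trend and 443 with array weights. Fits of only the groups compared were not run for the interaction and the genotype mean, which use all 4 groups.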
